A study of Mus musculus with 2 samples.

Results

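The 10 endothelial identity transcription factors Sox7, Sox11, Sox17, Sox18, Foxf1, Erg, Tal1, Gata2, Gata6 and Tbx3 were described in single-cell transcriptomes of mouse lung. They were taken by symbol, and each symbol matched 1 row of both count matrices, so the 10 genes were 10 of 31053 rows. The cells came from lungs of C57/B6 mice of 2 to 4 months of age, depleted of cells carrying CD45 (leukocytes) or CD326 (epithelium), with 1 library from mice kept in normoxia (the Normoxia group) and 1 from mice kept in hypoxia for 3 weeks (the Hypoxia group), a model of pulmonary hypertension. No allele or drug was named for either group. The study's text gives male mice for its hypoxia experiments and names several animals for this one, and whether their cells were pooled into the libraries is not stated in the sources used here. Each condition thus rests on 1 library, no test between conditions was possible, and every interval below covers counting error only.

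Endothelial cells keep their identity through a small network of DNA-binding proteins that hold genes such as Cdh5, Cldn5 and Egfl7 active. ERG, an ETS factor, and GATA2, a zinc-finger factor, act at many endothelial enhancers, and TAL1, a basic helix-loop-helix protein, is shared with blood cells and joins GATA proteins in complexes. The SoxF factors SOX7, SOX17 and SOX18 take part in arterial and lymphatic development, SOX17 being the one best known in arteries, and SOX17 variants are linked to pulmonary arterial hypertension. FOXF1 is needed for the lung capillary bed, GATA6 is shared by vessels, smooth muscle and lung epithelium, and TBX3 is a T-box repressor. SOX11, a SoxC factor, is best known from embryonic and neural tissue. In the alveolus 2 capillary cell types lie side by side, the general capillary cell and the aerocyte, the large thin cell through which gas is exchanged.

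The captured transcripts carried unique molecular identifiers (UMIs), so that UMIs count molecules. Of 2223 normoxia and 809 hypoxia cells, 1348 and 689 were kept with 5173361 and 2294966 UMIs, and 857 and 585 of these fell into the 13 endothelial-like (EC-like) clusters of 24, with median depths of 3891 and 2667 UMIs per cell. The libraries differed in more than the condition. More than 5% mitochondrial UMIs were found in 37.6% of normoxia and 13.2% of hypoxia cells, and EC-like cells were 63.6% and 84.9% of kept cells. The 12 EC markers that named the clusters summed to 18256 UMIs per 1000000 UMIs (CPM) in EC-like cells in normoxia and 17860 CPM in hypoxia, against 133 CPM in AT2-like cells in normoxia, which is a description since the same genes chose the clusters. They were also high in 2 unnamed groups of normoxia, a cluster led by Ndufa4l2 (14193 CPM) and a shallow cluster (12129 CPM), above the 7307 CPM of lymphatic EC-like cells. No kept barcode was shared between the libraries, and Ddx3y with 629 and 221 UMIs against 1 and 1 of Xist showed male cells in both.

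The 4 Sox genes among the members lay on different chromosomes in GRCm38 (GENCODE annotation), Sox17 on chromosome 1 (4490931 to 4497354, minus strand), Sox18 on 2 (181669836 to 181671640, minus), Sox7 on 14 (63943673 to 63950732, plus) and Sox11 on 12 (27334264 to 27342574, minus). Sox11 is a gene of 1 exon of 8311 bases. All 4 encode a DNA-binding HMG box. The other members lay on chromosome 16 for Erg (95359169 to 95586593, minus), 8 for Foxf1 (121084386 to 121088144, plus), 4 for Tal1 (115056426 to 115071755, plus), 6 for Gata2 (88193891 to 88207032, plus), 18 for Gata6 (11052064 to 11085635, plus) and 5 for Tbx3 (119670669 to 119684724, plus). Whether the counting used strand is not stated in the sources used here, and an antisense transcript, Tbx3os1, overlaps Tbx3. Tbx3os1 itself had 140 UMIs in normoxia and 56 in hypoxia, against 2113 and 1241 of Tbx3. Gm20388 overlaps Foxf1 on the same strand and had 0 UMIs.

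In normoxia 9 of the 10 factors had higher levels in EC-like cells than in the other kept cells, and Gata6 did not. A level is the sum of a gene's UMIs in a group of cells per 1000000 UMIs of that group (CPM), with an exact Poisson 95% interval. Ratios of levels carry exact conditional binomial 95% intervals, and a ratio between cell groups was called at 2-fold among genes with at least 50 UMIs. In normoxia 9 members were called higher in EC-like cells than in all other kept cells and 0 lower, where 13.8% of all genes were higher and 11.6% lower. The clusters were made without the members, but from the same cells, so that these counts are a description. The 12 EC markers stood at 15.4% of their EC-like level in the other cells, which include cells of mixed and shallow clusters.

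Among the SoxF genes, Sox17 stood at 320.5 CPM (302 to 340) in EC-like and 53.5 CPM in other cells (ratio 5.99), Sox18 at 266 (250 to 284) and 51.0 CPM (5.22), and Sox7 at 273 (256 to 290) and 51.6 CPM (5.28). Sox11 stood at 446 CPM (424 to 468) and 73.0 CPM (6.11, 5.05 to 7.44). Tal1 had the highest ratio, 7.91 (4.71 to 14.3), at 74.8 and 9.45 CPM, followed by Sox11 and by Tbx3, at 6.08 (589 and 97.0 CPM), with overlapping intervals. Foxf1 had 675 and 125 CPM (5.41), Gata2 369 and 76.2 CPM (4.84), and Erg 46.9 and 16.4 CPM (2.86, 1.89 to 4.51). For Gata6 the order was turned, at 34.0 CPM in EC-like and 42.2 CPM in other cells (0.807, 0.594 to 1.10). Against the 178 other cells of normoxia that held no UMI of 4 common endothelial genes (Egfl7, Cldn5, Pecam1 and Cdh5), the ratio was 12.97 for Gata2, 10.6 for Tbx3 and 0.726 for Gata6, so that the first 2 were larger by more than 1.5 times, as were those of Sox7, Sox11, Sox18, Erg, Foxf1 and Tal1.

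In hypoxia 7 members were called higher in EC-like cells and 1 lower, against 26.6% and 5.11% of all genes. The lower one was Gata6 (32.8 and 76.7 CPM, ratio 0.428, 0.249 to 0.777). Erg (54.5 and 72.2 CPM, 0.755) and Gata2 (313 and 198 CPM, 1.58) were within 2-fold there. Of the 16 Erg UMIs of the other cells, 6 lay in the Ndufa4l2-led cluster and 5 in the shallow cluster. The EC markers of these clusters stood at 79.3% and 61.5% of the EC-like level in hypoxia. Their part in the Erg ratio was not tested. Of the 44 Gata2 UMIs of the other cells 30 lay in 1 cell of the leukocyte cluster, and without that cell the Gata2 ratio was 4.81 (2.85 to 8.85). Without the 1 cell with 5 of the 17 Gata6 UMIs the Gata6 ratio was 0.558 (0.30 to 1.13) and not called. The other cells of the hypoxia library numbered 104, against 491 in normoxia, and their EC markers stood at 21.9% of the EC-like level.

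Gata6 was read in few cells outside the EC-like clusters. It stood at 221 CPM (106 to 407) in 5 AT2-like cells, cells of the airspace lining that escaped depletion, with 7 of the 10 UMIs in 1 cell. It stood at 125 CPM (68.3 to 210) in 46 AT1-like cells in normoxia, and at 221 CPM (114 to 387) in 6 AT2-like cells in hypoxia. Platelet or megakaryocyte-like cells had 133 CPM in normoxia from 5 UMIs in 1 cell. A cluster of 16 normoxia cells led by Hhip, with Aspn and Lum among its leading genes, had 132 CPM (70.1 to 225). Its best match was smooth muscle, with 6 of 9 markers detected, and it was left unnamed because of a fibroblast marker among its leading genes. The levels in AT2-like, AT1-like and Hhip-led cells were 651%, 367% and 387% of the EC-like level in normoxia. In the same AT2-like cells in normoxia 8 other members had 0 UMIs, which allows up to 66.4 CPM, and Tbx3 had 1 UMI. The EC markers were at 0.728% of the EC-like level in AT2-like and at 0.721% in Hhip-led cells, and at 30.5% in AT1-like cells.

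**Figure D1:**
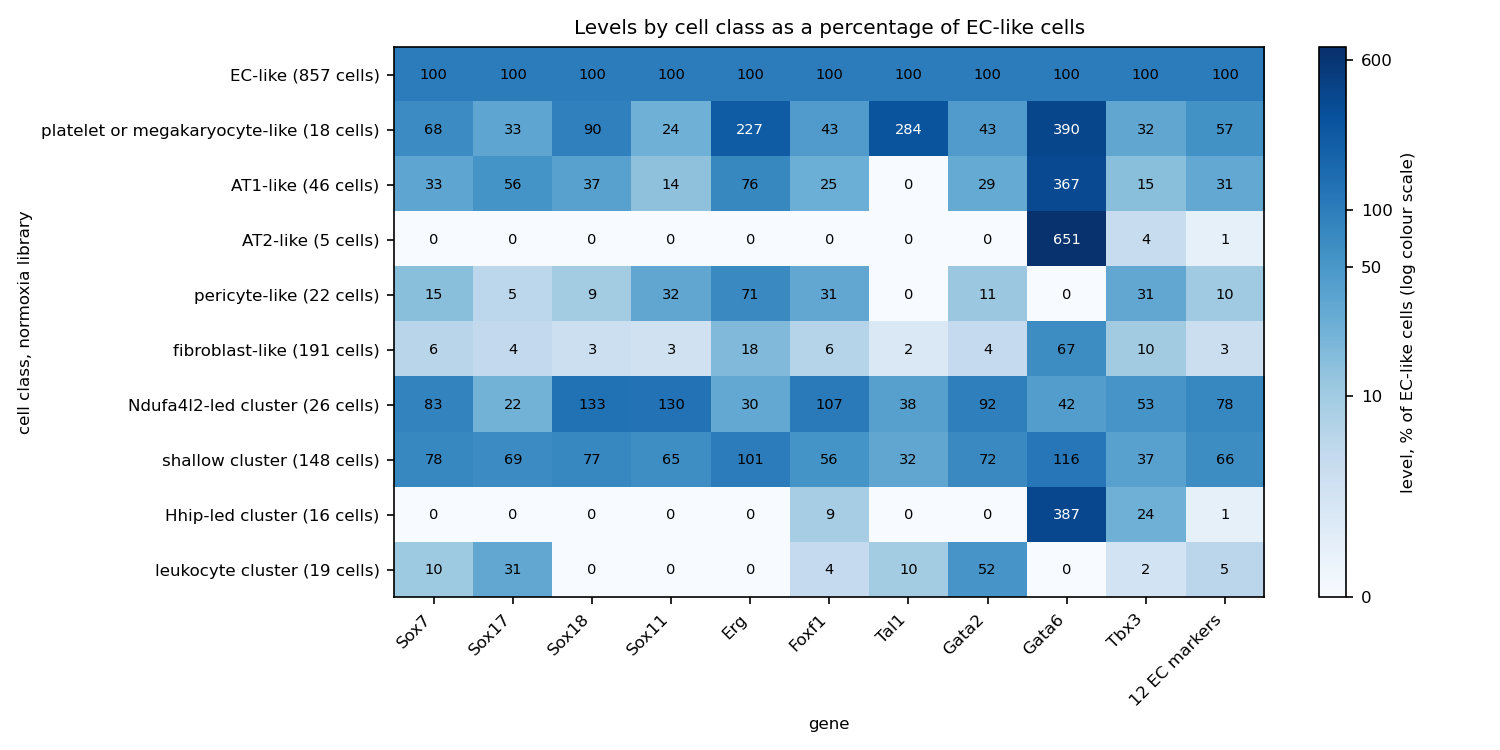
Level of each factor in the marker-defined classes and unnamed clusters of the normoxia library, as a percentage of its level in EC-like cells (colour on a log scale, numbers in the cells), with the 12 EC markers summed in the last column. Gata6 reaches 651% in AT2-like cells, and in fibroblast-like cells the other 9 factors lie at 17.9% or less.

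The EC markers differed widely among the remaining classes, and their part in the levels of the factors was not tested. Fibroblast-like cells, with EC markers at 3.34% of the EC-like level, had Sox18 at 8.38 CPM, Sox11 at 11.96 CPM and Tal1 at 1.20 CPM, but Gata6 at 22.7 CPM (13.7 to 35.5). Pericyte-like cells (22 in normoxia) had EC markers at 10.2%, with Foxf1 at 208 CPM (134 to 307), Tbx3 at 183 CPM (115 to 277), Sox11 at 141 CPM (82.2 to 226) and, from 4 UMIs, Erg at 33.2 CPM, each above 30% of EC-like cells, while Sox17 was at 16.6 CPM and Tal1 and Gata6 had 0 UMIs (up to 24.9 CPM). A cluster of 26 normoxia cells led by the pericyte gene Ndufa4l2 carried EC markers at 77.7% and had Sox11 at 581 CPM (417 to 788) and Foxf1 at 722 CPM (538 to 950), and it was left unnamed. In platelet or megakaryocyte-like cells, whose lineage uses TAL1, Tal1 stood at 213 CPM (91.8 to 419) from 8 UMIs in 18 normoxia cells, above the interval in EC-like cells (66.1 to 84.3). The EC markers of those cells were at 57.5%.

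The 22 cells of the leukocyte cluster showed how few cells can carry a class level. Gata2, needed in mast cells and basophils, stood at 192 CPM (127 to 279) in normoxia and had 57 UMIs over both libraries. Of these, 55 lay in 3 of the 4 cells that held at least 3 mast cell or basophil markers. The 14 UMIs of Sox17 in the cluster included 13 from 1 cell, which also held 11 of 12 EC markers and 6 of 7 B cell markers. Sox18, Sox11, Erg and Gata6 had 0 UMIs there, which in normoxia allows up to 21.3 CPM.

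Within the endothelium in normoxia, Sox17 and Sox11 were higher in general capillary cells, Tbx3 in aerocytes, and Gata6 in the arterial and venous clusters, each against the other EC-like cells. Of EC-like cells, 561 normoxia and 115 hypoxia cells were general capillary EC-like, 122 and 62 aerocyte EC-like, 49 and 14 arterial EC-like, 57 and 20 venous EC-like and 13 and 9 lymphatic EC-like. A further 27 and 298 cells lay in 2 clusters with Ntrk2 and MHC class II genes among their leading genes, called Ntrk2-led. Another 28 and 67 lay in 1 cluster of no subtype. Of the Ntrk2-led cells, 17 and 107 lay in cluster 9, with a median of 893 UMIs per cell and Gm26870 as first leading gene. Cluster 16 held the other 10 and 191, and all 7 general capillary markers were detected in it. The Ntrk2-led cells were thus mostly from hypoxia and the general capillary EC-like cells mostly from normoxia. Against all other EC-like cells of normoxia, 2 members were called higher in general capillary EC-like cells, Sox17 (3.69, 3.14 to 4.36) and Sox11 (3.49, 3.05 to 4.01), and 1 lower, Gata6 (0.476, and 0.568 without 1 arterial EC-like cell with 12 UMIs), where 3.48% of all genes were higher and 3.88% lower. In hypoxia 1 was higher, Sox11 (2.44), and 0 lower (5.40% and 7.14%). The other EC-like cells included the 27 Ntrk2-led cells in normoxia and the 298 in hypoxia, and the part of this difference in the counts was not tested. In the Ntrk2-led cells 1 was higher in normoxia, Sox17 (2.32, 1.63 to 3.20), and 1 lower, Erg from 1 UMI (9.65% and 26.4%). The 10 normoxia cells of cluster 16 held 30 of the 38 Sox17 UMIs. In hypoxia 0 members were called either way in the Ntrk2-led cells (1.48% and 3.89%).

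Sox17 had 452 CPM (424 to 481) in general capillary EC-like cells in normoxia, 183 CPM (140 to 236) in venous, 169.8 CPM (122 to 230) in arterial, 36.9 CPM (2 UMIs) in lymphatic and 28.4 CPM (17.3 to 43.8) in aerocyte EC-like cells. The venous and arterial intervals overlapped, and both lay below the general capillary and above the aerocyte interval. As a group, the 27 Ntrk2-led cells of normoxia stood higher, at 729 CPM (516 to 1001) from 38 UMIs, 9 of them in 1 cell. The 10 of these cells in cluster 16 held 30 of the UMIs (862 CPM). The 17 in cluster 9 held 8 (462 CPM), near the general capillary level. In hypoxia Sox17 had 590 CPM (406 to 829) in arterial and 510 CPM (433 to 596) in general capillary EC-like cells, with overlapping intervals. Sox11 in normoxia followed a like order among the named subtypes, at 623 CPM (591 to 658) in general capillary, 327 CPM (260 to 407) in arterial, 317 CPM (259 to 385) in venous, 221 CPM (114 to 387) in lymphatic and 44.0 CPM (29.9 to 62.4) in aerocyte EC-like cells. The ratio of aerocyte to general capillary EC-like cells was 0.063 (0.038 to 0.098) for Sox17 and 0.071 (0.048 to 0.10) for Sox11. In hypoxia the same ratios were 0.064 and 0.082, and 1 member was called higher and 2 lower (14.1% and 14.2% of all genes). Sox7 went the same way with a smaller difference, at 327 CPM in general capillary, 311 CPM in venous, 267 CPM in arterial and 101 CPM (78.7 to 127) in aerocyte EC-like cells in normoxia.

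Sox18 was the SoxF gene with no such step. It had 268 CPM (246 to 290) in general capillary and 255 CPM (219 to 296) in aerocyte EC-like cells, a ratio of 0.954 (0.803 to 1.13). Arterial EC-like cells were highest at 465 CPM (384 to 558) and venous EC-like cells had 171 CPM (129 to 222), and neither interval overlapped that of general capillary EC-like cells.

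Tbx3 ran the other way. It had 1350 CPM (1265 to 1438) in aerocyte EC-like cells, 458 CPM (430 to 487) in general capillary, 327 CPM (260 to 407) in arterial, 148 CPM (63.7 to 291) in lymphatic and 131 CPM (94.98 to 177) in venous EC-like cells in normoxia. The aerocyte level was 2.95 times (2.69 to 3.23) that of general capillary EC-like cells in normoxia and 2.02 times (1.69 to 2.42) in hypoxia, where 1 cell with 23 UMIs moved it to 1.97 and off the call. Tbx2, its closest relative, had a steeper aerocyte to general capillary ratio in normoxia, 36.0. Over all members, 1 was called higher and 6 lower in aerocyte than in all other EC-like cells in normoxia, where 6.09% of all genes were higher and 11.6% lower. Against general capillary EC-like cells alone the counts were also 1 and 6 (6.24% and 11.0% of all genes). The lower ones were Sox17, Sox11, Gata6, Sox7, Erg and Tal1, and Foxf1 and Gata2 were not among them. One of the 2 aerocyte clusters was shallow and led by the club cell gene Scgb1a1, and without it the counts were again 1 and 6. In hypoxia the counts were 1 and 3 (7.26% and 13.6%).

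Gata6 stood at 141 CPM (98.6 to 197) in arterial and 91.6 CPM (61.8 to 131) in venous EC-like cells in normoxia, with overlapping intervals, against 23.7 CPM (17.6 to 31.1) in general capillary and 4.26 CPM (3 UMIs) in aerocyte EC-like cells. Of the 35 arterial UMIs, 12 lay in 1 of the 49 cells. Gata6 was the 1 member called higher in arterial EC-like cells against the rest (5.43, 3.56 to 8.12), with 0 lower, and the 1 called higher in venous EC-like cells (3.24, 2.07 to 4.94), with 1 lower, Tbx3 (0.207). The background was 3.23% higher and 10.3% lower for arterial, and 3.55% and 10.3% for venous EC-like cells. In hypoxia Gata6 was again the 1 called higher in both, from 7 and 6 UMIs (4.14 and 2.17), the second not called without 1 cell with 3 UMIs (1.12), with 0 members lower in arterial and 4 in venous EC-like cells (background 10.0% higher and 19.4% lower, and 6.90% and 17.8%). Of 7 general capillary markers 6 were detected in the arterial cluster, and their part in its levels was not tested. When arterial cells were taken by their own markers, the normoxia ratio to other EC-like cells was 15.1 for Gata6 and 0.155 for Sox11, where the cluster gave 0.720 for Sox11.

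Foxf1 and Gata2 were within 2-fold over the named blood vessel subtypes in normoxia, while Foxf1 in hypoxia ran from 340 CPM in arterial to 774 CPM in aerocyte EC-like cells, and both were lower in lymphatic EC-like cells in normoxia. Foxf1 ranged from 529.6 CPM (443 to 628) in arterial to 735 CPM (673 to 801) in aerocyte EC-like cells in normoxia and had 148 CPM (63.7 to 291) in lymphatic EC-like cells. Gata2 ranged from 278 CPM (224 to 341) in venous to 433 CPM (355 to 523) in arterial EC-like cells. In the lymphatic EC-like cells Gata2 had 1 UMI of 18.5 CPM in normoxia and 0 UMIs in hypoxia (an upper limit of 101 CPM at that depth), and its lymphatic to other EC-like ratio in normoxia was 0.049 (0.0012 to 0.28). Of the 10 members 6 were called lower in lymphatic EC-like cells in normoxia and 0 higher, against 30.0% and 12.9% of all genes, from 13 cells in all. In hypoxia the counts were 6 and 0 from 9 cells (36.2% and 11.5%).

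Erg and Tal1 were counted sparsely, at 46.9 and 74.8 CPM over all EC-like cells in normoxia. Erg had 53.8 CPM (44.5 to 64.5) in general capillary, 52.6 CPM (28.0 to 89.9) in arterial, 39.7 CPM (21.1 to 67.8) in venous and 18.4 CPM (9.82 to 31.5) in aerocyte EC-like cells. The aerocyte interval lay below that of general capillary EC-like cells and overlapped the other 2. Tal1 had 89.99 CPM (77.8 to 104) in general capillary, 79.4 CPM (51.8 to 116) in venous, 44.5 CPM (22.2 to 79.6) in arterial and 38.3 CPM (25.3 to 55.7) in aerocyte EC-like cells, with the same overlaps.

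**Figure D2:**
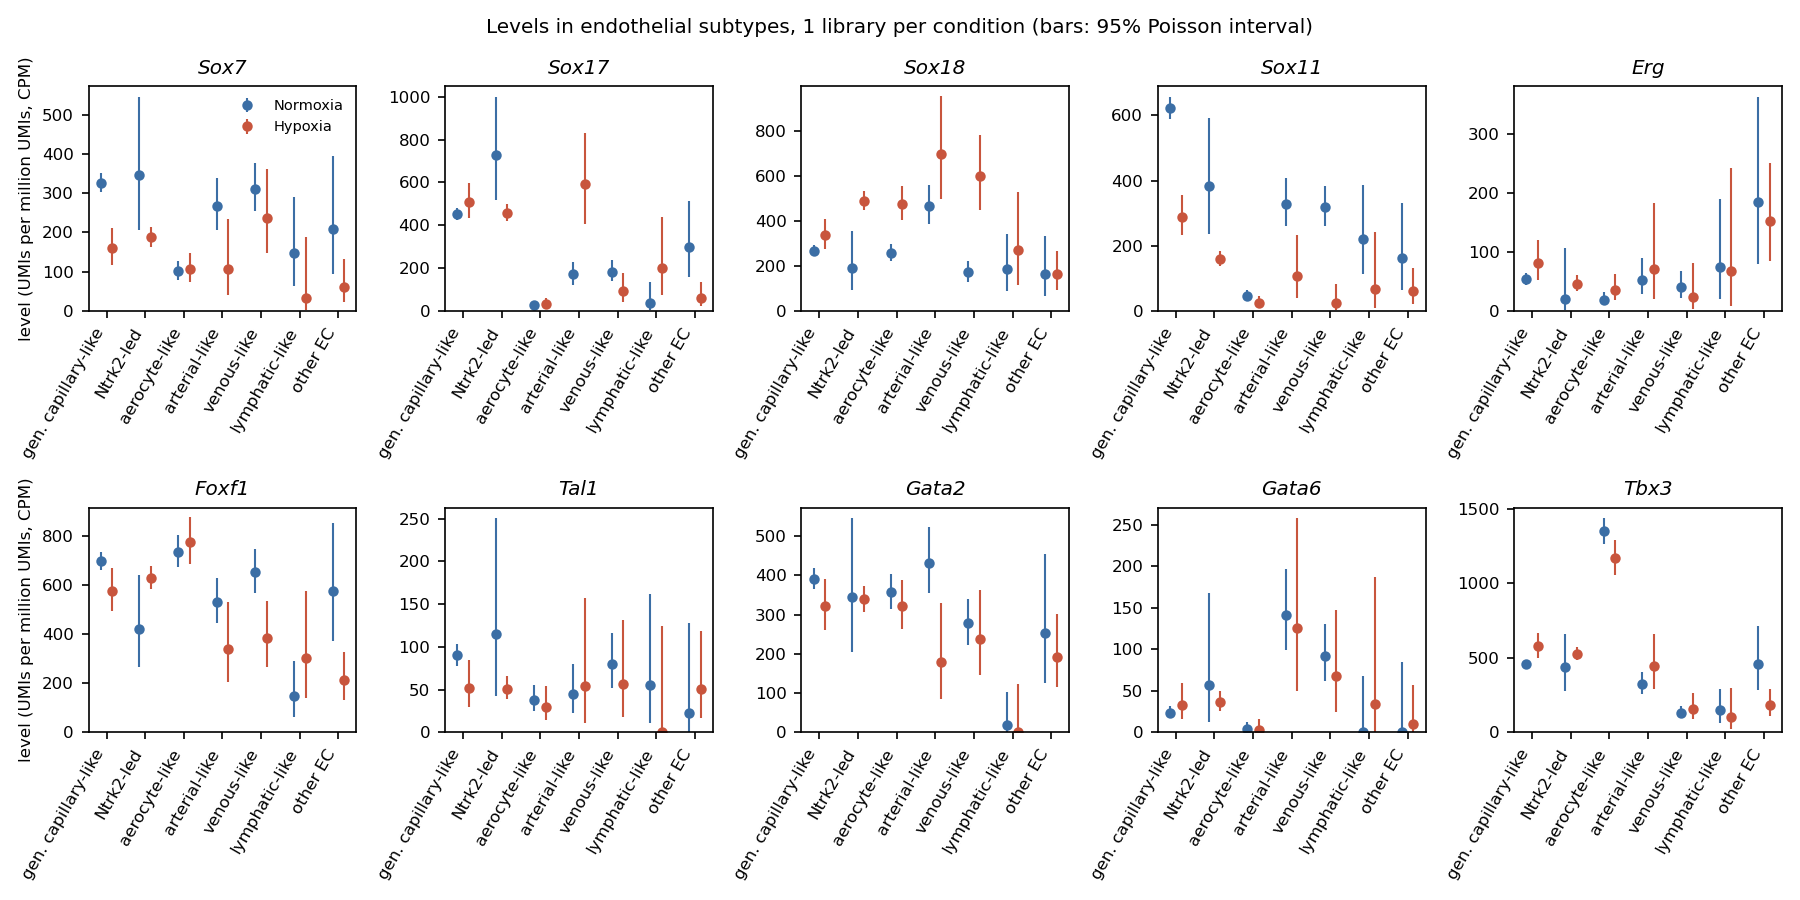
Level of each factor (CPM, vertical axis, starting at 0, 1 scale per gene) in 7 groups of EC-like cells in normoxia (blue) and hypoxia (red); points are levels over all cells of the group in 1 library and bars are 95% Poisson intervals. Tbx3 is highest in aerocyte EC-like cells in both libraries (1350 and 1167 CPM), while Sox17 and Sox11 are near 0 there.

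The comparison of hypoxia with normoxia asked how the factors stood after 3 weeks of low oxygen. In all EC-like cells, Sox18 was higher in the hypoxia library, Sox11, Sox7 and Tal1 were lower, and 6 members were within 1.5-fold, the fold used as a call between libraries. The background was 7.85% of 8744 genes higher and 9.82% lower, and the median ratio of all genes was 1.02. A level in 1 library is that of its cells and cannot be told apart from how those cells were captured or handled.

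Sox11 had 446 CPM in normoxia (1599 UMIs, 424 to 468) and 144 CPM in hypoxia (298 UMIs, 128 to 161), a hypoxia/normoxia ratio of 0.322 (0.284 to 0.365), and 1.38% of all genes had a lower one. Sox7 had 273 and 162 CPM (978 and 336 UMIs), a ratio of 0.594 (0.523 to 0.673), with 6.38% of genes lower. Sox18 had 266 and 455 CPM (955 and 943 UMIs), a ratio of 1.71 (1.56 to 1.87), with 96.0% of genes lower. The 3 intervals did not overlap 1, and Sox18 and Sox7, members of the same SoxF group, differed in opposite directions. Sox17, the third SoxF gene, had 320.5 and 361 CPM, a ratio of 1.13 (1.03 to 1.24).

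Tal1 had 74.8 CPM (66.1 to 84.3) and 47.3 CPM (38.4 to 57.6), from 268 and 98 UMIs, a ratio of 0.632 (0.497 to 0.7998). Foxf1 had 675 and 601 CPM (0.891, 0.832 to 0.954) and Gata2 369 and 313 CPM (0.849, 0.772 to 0.933), both slightly lower in hypoxia by more than counting error. Erg (46.9 and 54.5 CPM, 1.16, 0.908 to 1.49), Gata6 (34.0 and 32.8 CPM, 0.964, 0.706 to 1.31) and Tbx3 (589 and 599 CPM, 1.02, 0.946 to 1.09) had intervals that held 1.

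**Figure D3:**
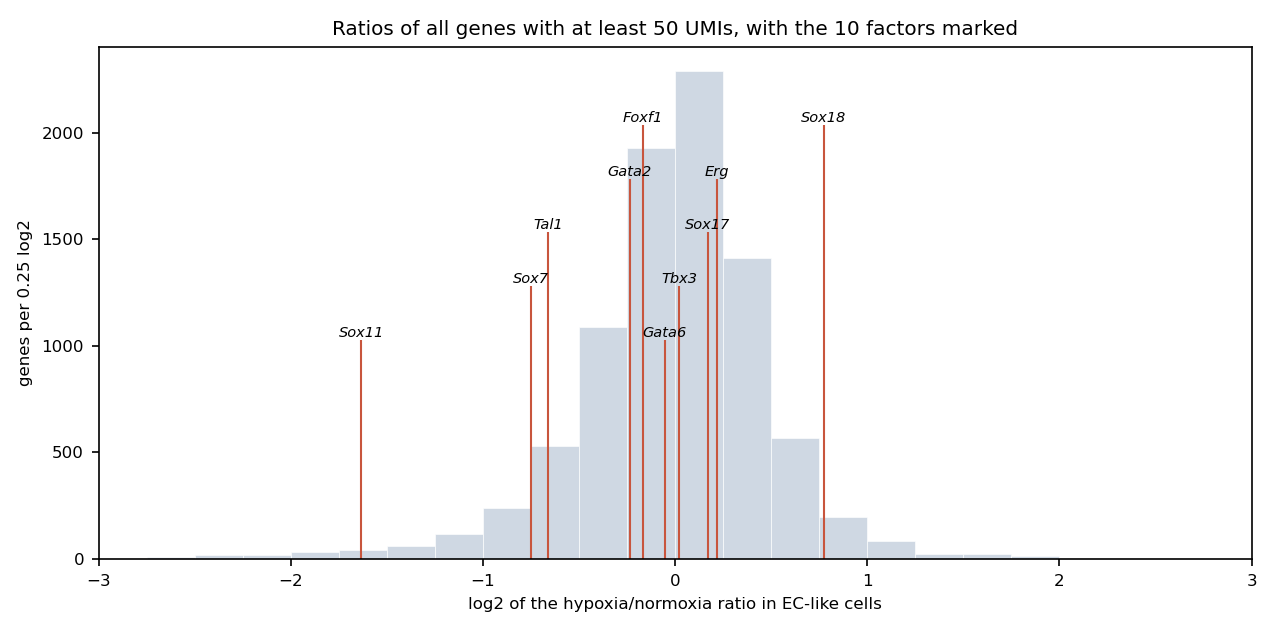
Histogram of the log2 hypoxia/normoxia ratio in EC-like cells for the genes with at least 50 UMIs over both libraries (bars, genes per 0.25 log2), with the ratio of each factor as a red line whose height has no meaning. Sox11 lies in the lower tail and Sox18 in the upper, and 6 of the 10 factors lie in the 2 bars next to 0.

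The libraries also differed in immediate-early genes, which respond within minutes to stimuli that include tissue dissociation. A list of 10 (Fos, Fosb, Jun, Junb, Egr1, Atf3, Ier2, Ier3, Zfp36 and Socs3), written after the data were seen, summed to 18936 CPM in EC-like cells in normoxia and 5812 CPM in hypoxia. The part of this difference in the members' ratios was not tested. The ratios were recomputed without the 4 EC-like clusters in which the sum was above the EC-like level in normoxia. This left 455 normoxia and 535 hypoxia cells. Clusters 1, 3 and 20 of the 4 were general capillary EC-like (142, 154 and 49 normoxia and 2, 24 and 4 hypoxia cells), and cluster 17 was venous EC-like. The mix of subtypes thus changed too, mainly in normoxia, and its part in the recomputed ratios was not tested. Sox11 kept a ratio of 0.449 (0.387 to 0.520) and Sox18 one of 1.56 (1.39 to 1.74), both still called. Sox7 came to 0.763 (0.652 to 0.892) and Tal1 to 0.998 (0.732 to 1.36), and neither was called. Sox17 came to 1.74 (1.53 to 1.98), now called higher, and Tbx3 to 0.775. The counts were then 2 higher and 1 lower in place of 1 and 3, where 8.39% and 9.06% of all genes were called in these cells.

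Clusters of general capillary EC-like cells differed in their immediate-early level. In cluster 4 (148 normoxia and 13 hypoxia cells), with 3638 and 3204 CPM of these genes, Sox11 had 578 and 291 CPM. In cluster 15 (68 and 72 cells), with 4889 and 3028 CPM, Sox11 had 761 and 353 CPM. In cluster 3 (154 and 24 cells), where the sum was 26922 and 27768 CPM, Sox11 had 569.9 and 242 CPM. The hypoxia values rest on 10, 51 and 26 Sox11 UMIs, and the part of the immediate-early difference in them was not tested. Sox7 had 313 and 204 CPM in cluster 4, 134 and 124 CPM in cluster 15 and 338 and 186 CPM in cluster 3.

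**Figure D4:**
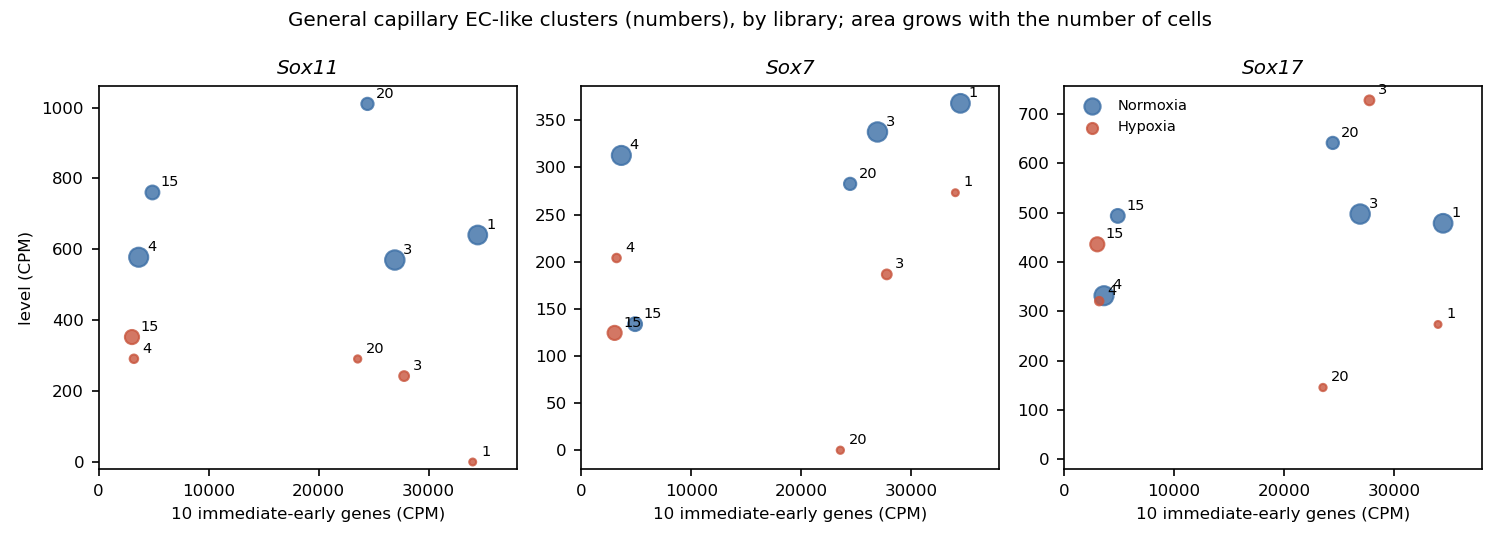
Levels of Sox11, Sox7 and Sox17 (CPM, vertical axes) against the summed level of 10 immediate-early genes (CPM, horizontal axis) in the 5 general capillary EC-like clusters, numbered, in normoxia (blue) and hypoxia (red), with a larger area for more cells. For Sox11 each hypoxia point lies below the normoxia point of its cluster, and clusters 1 and 20 hold 2 and 4 hypoxia cells.

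In the 10 EC-like clusters to which both libraries gave 10 cells or more, the Sox11 ratio was below 1 in 9, with the interval below 1 in 8. That of Sox18 was above 1 in 9, with the interval above 1 in 5. Sox7 was below 1 in 8 (interval in 4) and Tal1 in 7 (interval in 0). Sox17 was below 1 in 7 and above in 3, with 2 intervals clear of 1 on each side, by counting error alone. The 2 below were cluster 8, with 13 normoxia UMIs, 10 of them in 1 cell, and cluster 16, with 30 from 10 normoxia cells. The 2 above were cluster 3, with 78 UMIs from 24 hypoxia cells, and cluster 6, with 33 from 14. The pooled Sox17 ratio near 1 thus joined clusters with ratios on both sides of 1. Pooled within the 10 clusters, the ratio was 0.393 for Sox11, 1.80 for Sox18, 0.682 for Sox7 and 0.739 for Tal1, and the last 2 were then not called.

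By subtype, Sox18 and Sox11 differed between the libraries in several vessels, and Sox17 in arterial EC-like cells. The venous Sox17 ratio was below 1, with an interval that held 1. In general capillary EC-like cells 1 member was called higher in hypoxia and 3 lower (background 14.0% and 14.3%). Sox11 had 623 and 289 CPM there (0.464, 0.370 to 0.575), Sox7 327 and 159 CPM (0.488, 0.357 to 0.652) and Tal1 89.99 and 52.0 CPM (0.578, 0.324 to 0.962). Cluster 15, where Sox7 had 134 and 124 CPM, held 68 of the 561 normoxia and 72 of the 115 hypoxia cells. It had a median of 1687.5 UMIs per cell and Gm26917 as first leading gene. The other general capillary EC-like clusters had medians of 4533 (cluster 1), 3911 (cluster 3), 3595 (cluster 4) and 1627 UMIs (cluster 20). Immediate-early genes stood at 21586 and 13601 CPM in the whole group. The part of these differences in the ratios of this group was not tested. Erg passed the call with 53.8 and 81.2 CPM and an interval that held 1 (1.51, 0.939 to 2.34), and without 1 cell with 3 UMIs it did not (1.34). Sox18 had 268 and 335 CPM (1.25, 1.00 to 1.54) and Tbx3 458 and 578 CPM (1.26, 1.07 to 1.48).

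The Ntrk2-led cells of hypoxia (298) stood near the general capillary EC-like cells of normoxia in Sox17 (457 and 452 CPM) and below them in Sox11 (160.3 and 623 CPM, 0.257, 0.219 to 0.30), Sox7 (188 and 327 CPM, 0.576) and Tal1 (51.1 and 89.99 CPM, 0.568). Sox18 was higher in them (488 and 268 CPM, 1.82, 1.62 to 2.05). Gata6 passed the call too, at 36.4 and 23.7 CPM (1.54, 0.997 to 2.36), with 5 of the 42 hypoxia UMIs in 1 cell. Ratios of Ntrk2-led cells were not recomputed without the 1 cell with the most UMIs. The counts were 2 higher and 3 lower, against 12.9% and 13.1% of all genes. Within the Ntrk2-led cells, hypoxia against the 27 normoxia cells gave 2 higher and 4 lower (29.4% and 15.9%), with Sox18 at 2.54 (1.37 to 5.33) and Sox11 at 0.418 (0.263 to 0.700). The other higher one was Erg, from 1 normoxia UMI (19.2 CPM) and 53 hypoxia UMIs (45.9 CPM). Tal1, among the lower, had 6 normoxia UMIs.

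In aerocyte EC-like cells Sox18 had 255 CPM (219 to 296) and 476 CPM (405 to 555), a ratio of 1.86 (1.496 to 2.32), and was the 1 member called, with 0 lower and 5 under the minimum of UMIs (background 8.41% and 11.0%). Tbx3 was at 1350 and 1167 CPM (0.865, 0.767 to 0.974) and Foxf1 at 735 and 774 CPM (1.05, 0.904 to 1.22). Immediate-early genes stood at 11861 and 6865 CPM in these cells.

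In the 49 and 14 arterial EC-like cells Sox17 had 169.8 CPM (122 to 230) from 42 UMIs and 590.3 CPM (406 to 829) from 33 UMIs, a ratio of 3.48 (2.13 to 5.62). Sox18 had 465 and 698 CPM (1.5, 1.02 to 2.17), with 14 of the 39 hypoxia UMIs in 1 of the 14 cells, and without that cell the ratio was 1.07 (0.664 to 1.66) and not called. Gata2 had 433 and 179 CPM (0.414, 0.193 to 0.790), Sox11 327 and 107 CPM (0.328), Sox7 267 and 107 CPM (0.402) and Foxf1 529.6 and 340 CPM (0.642, 0.374 to 1.04), the last not called without 1 normoxia cell with 9 UMIs (0.674). The counts were 2 higher and 4 lower, against 12.9% and 18.2% of all genes, from 6 hypoxia UMIs each for Sox11 and Sox7. Immediate-early genes stood at 9654 and 3220 CPM.

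The 57 and 20 venous EC-like cells showed the widest split between members of the Sox family. Sox18 had 171 CPM (129 to 222) and 598 CPM (448 to 782), a ratio of 3.50 (2.36 to 5.19), while Sox11 had 317 CPM (104 UMIs) and 22.6 CPM (2 UMIs), a ratio of 0.071 (0.0085 to 0.26). Sox17 had 183 and 90.2 CPM (0.493, 0.203 to 1.03) and Foxf1 653 and 384 CPM (0.587, 0.396 to 0.846), which made 1 higher and 3 lower (13.9% and 15.8% of all genes). Immediate-early genes stood at 28650 and 8719 CPM, the largest difference among the named subtypes of blood vessels, and this cluster is 1 of the 4 left out above. In lymphatic EC-like cells and in the EC-like cluster of no subtype all 10 members were under the minimum of UMIs, so that 0 were called, where 48.0% and 23.6% of all genes were higher and 18.1% and 13.5% lower.

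**Figure D5:**
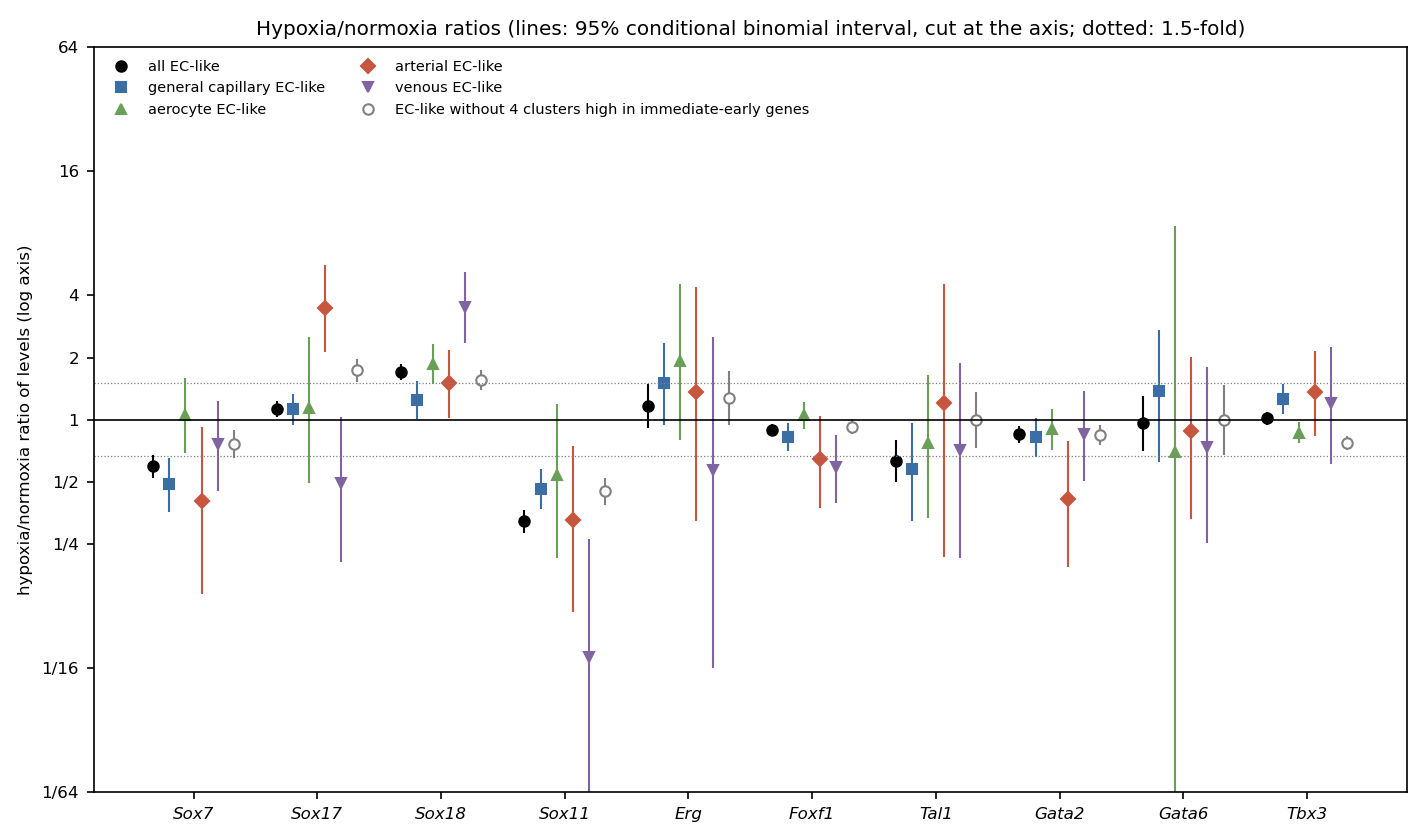
Hypoxia/normoxia ratio of each factor (log axis) in all EC-like cells, in 4 named subtypes and in EC-like cells without the 4 clusters high in immediate-early genes; lines are 95% conditional binomial intervals and dotted lines mark 1.5-fold. Sox11 is below 1 in every group shown and Sox18 above 1, while Sox17 lies above 1 in arterial EC-like cells (3.48). In venous EC-like cells Sox17 is at 0.493, with an interval that holds 1 (0.203 to 1.03). The aerocyte Sox11 ratio rests on 31 normoxia and 8 hypoxia UMIs, under the minimum for a call. The arterial Sox18 ratio is 1.07 (0.664 to 1.66) without 1 hypoxia cell.

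Outside the endothelium the hypoxia library held few cells. In all other kept cells (491 and 104), Sox18 had 51.0 and 104 CPM (2.03, 1.22 to 3.27) and Sox11 73.0 and 31.6 CPM (0.432, 0.170 to 0.919). The Ndufa4l2-led and shallow clusters, with EC markers at 77.7% and 66.4% of the EC-like level, held 41 and 37 of the 116 normoxia UMIs of Sox11 and 25 and 26 of the 81 of Sox18, and their part in these ratios was not tested. In fibroblast-like cells alone Sox11 had 10 normoxia and 2 hypoxia UMIs (1.98, 0.211 to 9.30), below the minimum. Gata2 had 76.2 and 198 CPM (2.60, 1.80 to 3.71), and without the 1 cell of the leukocyte cluster with 30 of the 44 hypoxia UMIs the ratio was 0.854 (0.453 to 1.49). Gata6 had 42.2 and 76.7 CPM (1.82, 1.00 to 3.13), and without 1 cell with 5 UMIs 1.39, not called, and Sox7 51.6 and 31.6 CPM (0.611, 0.238 to 1.32). The counts were 3 higher and 2 lower (12.5% and 29.4% of all genes).

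The share of EC-like cells with a UMI was read after thinning each cell to 1000 UMIs, since depth differed, which kept 807 normoxia and 474 hypoxia cells and left out 50 and 111. Sox11 was found in 34.1% (30.8 to 37.5) and 11.4% (8.68 to 14.6) of cells, Sox7 in 22.9% (20.1 to 26.0) and 14.1% (11.1 to 17.6), Sox18 in 21.3% (18.5 to 24.3) and 32.1% (27.9 to 36.5), Tal1 in 8.92% (7.05 to 11.1) and 3.80% (2.27 to 5.94) and Foxf1 in 45.6% (42.1 to 49.1) and 35.0% (30.7 to 39.5). The intervals of the libraries did not overlap for these 5 (exact Clopper-Pearson, counting error only). The same count over all genes was not computed, so whether it is unusual is not known. Gata2 was found in 28.6% and 25.5%, Tbx3 in 40.3% and 36.3%, Sox17 in 24.8% and 28.9%, Erg in 4.58% and 5.91% and Gata6 in 2.85% and 3.59%. Shares without thinning were higher in hypoxia for 1 member in place of 4, again without a count over all genes. In fibroblast-like cells of normoxia, with a median of 3411 UMIs, the thinned shares were 2.16% for Sox11, 2.88% for Sox7 and 0.719% for Sox18. They were 2.16% for Sox17, Gata2 and Gata6, 6.47% for Foxf1 and 5.76% for Tbx3. Erg and Tal1 were found in 0 of 139 cells, which allows up to 2.16%.

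Single cells seldom showed the whole set. At 1000 UMIs, 93.2% of normoxia and 89.7% of hypoxia EC-like cells held a UMI of at least 1 of the 10 factors, with a median of 2 per cell, and 18.3% and 12.7% held at least 4. A UMI of any SoxF gene was found in 54.3% and 57.4%, and of Sox7, Sox17 and Sox18 together in 1.36% and 2.53%. At this depth a gene missing in a cell is not shown to be unexpressed.

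Promoter windows of 250 bases before the RefSeq start (GRCm38.p6) were at hand for Tal1, Gata2, Sox11 and Erg, 8 windows in all. Those of Sox11 and Tal1 are printed. They were chosen because both genes were lower in the hypoxia library and both windows hold GATAA, on one strand or the other. GATAA is a form of the site bound by GATA factors, and other forms were not searched. That both windows hold GATAA was fixed by the choice, and a link to the ratios was not tested. GATAA is also in 1 of 3 windows of Erg, which was not called between the libraries. No window was at hand for Sox7, which was lower too. Tal1 has 2 windows, and the second (chr4:115057561-115057810) holds no GATAA and 1 GGAAG. The Sox11 window is chr12:27342719-27342968 on the minus strand, with GATAA 19 bases before the start, and the printed Tal1 window is chr4:115056176-115056425 on the plus strand, with TTATC, the other strand of GATAA, 205 bases before the start. Both lie upstream of a RefSeq transcript start, which for Sox11 is 27342718 and lies outside the GENCODE gene. Capitals mark these letters.
Sox11: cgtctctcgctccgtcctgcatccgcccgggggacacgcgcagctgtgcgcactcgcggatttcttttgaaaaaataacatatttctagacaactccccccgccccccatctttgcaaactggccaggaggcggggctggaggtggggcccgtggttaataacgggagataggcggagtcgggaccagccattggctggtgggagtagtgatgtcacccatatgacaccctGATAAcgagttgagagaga
Tal1: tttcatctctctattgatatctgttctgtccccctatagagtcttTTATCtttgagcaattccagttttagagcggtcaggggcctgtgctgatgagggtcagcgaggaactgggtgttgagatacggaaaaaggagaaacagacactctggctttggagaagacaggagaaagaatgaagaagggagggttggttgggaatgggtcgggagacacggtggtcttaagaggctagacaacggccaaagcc
GATAA was found on either strand in 22.6% of 32851 windows of this length. GGAAG (an ETS core) was found in 64.1%, ACAAT (a Sox core) in 27.7% and ACGTG (a form of the hypoxia response element) in 16.6%. The exact letters of the last 3 were found in neither of the printed windows. Shorter or other forms of these sites were not searched, and the printed windows are not shown to lack them. A match of letters is a description of the window and not a bound site.

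Likeness of other genes to each factor over the clusters of the normoxia library was the Pearson correlation of log2(CPM + 10) over 16 clusters with at least 20 normoxia cells, 10 of them EC-like, among 8646 genes, and is a description, since clusters share a library and the contrast of EC-like with other cells lifts all such values. Gata2 was most like Podxl (0.982), a sialomucin of the vessel lining, and Sox18 most like Tspan7 (0.964), followed by Ace and Ramp2. Sox11 was most like Cd93 (0.956), a fixed marker of general capillary cells, and Sox7 most like Pltp (0.961). Foxf1 was most like the prostaglandin carrier Slco2a1 (0.952), Tbx3 most like Prkce (0.933), Tal1 most like Ccm2l (0.926) and Sox17 most like Tubb2b (0.918). The sparse genes had lower values, 0.875 for Gata6 with Rasgrf2 and 0.875 for Erg with Msrb3.

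Around the members stood other transcription factors of the endothelium. Of 28 listed, 20 had enough UMIs, with 1 called higher (Bcl6b) and 3 lower (Foxo1, Nr2f2 and Klf4), where 7.85% and 9.82% of all genes were, and a median ratio of 0.853, against 1.02 over all genes. The 4 with the most UMIs were Epas1, which encodes HIF2A (2974 and 2105 CPM, 0.708), the flow-responsive Klf2 (2009 and 1458 CPM, 0.726) and Klf4 (1674 and 1000 CPM, 0.598), and Tcf4 (1029 and 976 CPM, 0.949). Of 9 partners of TAL1 complexes outside the set 7 were tested and 0 called, with a median of 0.949, among them Lmo2 (249 and 209 CPM, 0.839) and Cbfa2t3 (405 and 358 CPM, 0.883). The immediate-early genes given above differed between the same libraries, and their part in these ratios was not tested.

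Relatives of the members outside the set were few. Of 8 Sox relatives 2 were tested, Sox4, a SoxC gene like Sox11, being lower (238 and 156 CPM, 0.653) and Sox13 within (108 and 136 CPM, 1.26). Of 6 GATA relatives 2 were tested, with Gata3 lower (77.8 and 38.6 CPM, 0.496, 0.382 to 0.638) and Zfpm1, a GATA cofactor, within (1.26). Of 10 Fox relatives 3 were tested, with Foxo1 lower (0.665) and Foxp1 within (1126 and 1207 CPM, 1.07). Tbx2 was the 1 of 7 T-box relatives tested and stood at 126 and 147 CPM (1.16).

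Of 20 genes known from textbooks as targets of ERG, SoxF, FOXF1 or GATA2 all were tested between the libraries, with 1 higher (Emcn) and 3 lower (Eng, Dll4 and Vcam1), where 7.85% and 9.82% of all genes were, and a median ratio of 0.968. Those with the most UMIs were the tight junction gene Cldn5 (3478 and 3147 CPM, 0.905), the cadherin gene Cdh5 (2159 and 2358 CPM, 1.09), Egfl7 (1584 and 1899 CPM, 1.20) and Pecam1 (1314 and 1471 CPM, 1.12). In normoxia 19 of the 20 were higher in EC-like than in other kept cells and 1, Vcam1, was lower, where 13.8% and 11.6% of all genes were. Cdh5, Cldn5, Egfl7, Pecam1 and others of the 20 were among the EC markers that named the clusters. Their place in this count was thus largely fixed by the naming, and the count is a description.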

How the data were processed

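The authors aligned reads of 10x 3′ libraries to mm10 with Cell Ranger (6.1.2 per the file headers, another version in the study's text) and deposited raw UMI counts per gene for barcodes called as cells, not normalized. Of 2223 normoxia and 809 hypoxia cells, cells were kept if 200 to 4000 genes were detected and mitochondrial UMIs made up no more than 5%. The upper limit was the main guard against doublets, and Scrublet, as an alternative, called 3 and 0 cells. Genes found in at least 3 cells were log-normalized to 10000 per cell, and 2000 variable genes without the members, 30 components, 15 neighbours and Leiden resolution 2 gave 24 clusters without batch correction (scanpy 1.11.5, anndata 0.12.19, igraph 0.11.9, numpy 2.4.6, scipy 1.17.1, pandas 2.3.3, python 3.11.15, matplotlib 3.10.9). Clusters were named from fixed markers when at least 3 were detected, no other class led the 10 leading genes and the cluster was not shallow, which left 4 unnamed. A rule that a lymphocyte cluster led by at least 2 of 8 myeloid genes stays unnamed was added after the data were seen.

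UMIs were summed per group and library. Calls needed 50 UMIs and 1.5-fold between libraries or 2-fold between groups, a count of 0 allows up to 3 counts, and intervals are at 95%. With 1 library per condition no p-value was computed. The text names all 10 members, up to 4 genes of each related list by UMI count, the genes most like each member and, by call, list members chosen after their values were seen. The members and lists were chosen with earlier results of these data known. Scripts were tested on simulated data. Alternatives covered the cell limits, resolution, marker gates, separate clustering, scaling, a mean over cells, thinning and clusters or single cells left out. GENCODE GRCm38 gave gene positions, and RefSeq GRCm38.p6 the promoter windows, which 4 of the 10 members matched. Coding sequences of the Sox genes are not reported here.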

Additional observations from a re-analysis of the deposited data

Results flagged for a closer look

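The hypoxia/normoxia ratio of 2 members lay clear of 1 in opposite directions in different groups of EC-like cells, by counting error alone. For Sox17 it was 3.48 in arterial EC-like cells and 0.626 in Ntrk2-led cells, the latter with 9 of 38 normoxia UMIs in 1 cell. In the EC-like cluster of no subtype it was 0.203, from 13 normoxia UMIs, 10 of them in 1 cell, and 6 hypoxia UMIs. For Tbx3 it was 1.26 in general capillary EC-like cells, 0.865 in aerocyte EC-like cells and 0.397 in the cluster of no subtype, the last from 20 normoxia UMIs, 11 of them in 1 cell, and 18 hypoxia UMIs. With 1 library per condition these differences between groups were not tested.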

How the results depend on the processing

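No paired analysis was possible because Normoxia and Hypoxia were each 1 library with no replicate, which also left none to leave out. Over 14 alternatives each, the EC-like hypoxia/normoxia ratio of Sox18 lay between 1.56 and 1.80 and that of Sox11 between 0.298 and 0.449, both called throughout. The other ratios ranged from 0.570 to 0.763 for Sox7, 0.505 to 0.998 for Tal1, 0.979 to 1.74 for Sox17, 1.06 to 1.54 for Erg, 0.815 to 0.940 for Foxf1, 0.756 to 0.888 for Gata2, 0.781 to 1.06 for Gata6 and 0.775 to 1.11 for Tbx3. Leaving out the 4 clusters high in immediate-early genes, an alternative chosen after seeing the data, as were those without 4 shallow EC-like clusters and without the Scgb1a1-led cluster, moved Sox17 to 1.74, Sox18 to 1.56, Sox7 to 0.763, Sox11 to 0.449, Tal1 to 0.998 and Tbx3 to 0.775, with 2 members higher and 1 lower. Pooling within clusters gave Sox7 0.682, Sox11 0.393 and Tbx3 0.926, with 1 member lower. In another alternative the 4 EC-like clusters with more than 90% of their cells from 1 library were left out. Sox17 was then 1.02, Erg 1.54 and Foxf1 0.815, with 2 higher. Tal1 came to 0.672 and was not called, nor was it without shallow clusters (0.675) or when pooled within clusters (0.739). A mean over cells gave Sox17 0.979, Foxf1 0.818, Gata2 0.756 and Tbx3 0.910, a limit of 10% mitochondrial UMIs gave Tbx3 1.10 and one of 6000 genes 1.11. The causes were not tested. The share of all genes called was computed for the main setting in each library and without the 4 clusters high in immediate-early genes. It was not computed for the other alternatives, so their counts of members have no background beside them. Among subtypes, members lower in general capillary EC-like cells came to 0 at 10% mitochondrial UMIs, at resolution 1 and in hypoxia, and to 2 by marker gate, and members higher to 1 in hypoxia. Members lower in aerocyte EC-like cells came to 3 in hypoxia. Members lower in venous EC-like cells came to 2 at 10%, 3 at resolution 1, 2 by gate and 4 in hypoxia, and in arterial EC-like cells to 3 with members among the variable genes and 5 by gate. Members higher in lymphatic EC-like cells came to 1 at resolutions 1 and 3, with members among the variable genes and by gate, and the Gata6 ratio there, 0 in normoxia, was 1.02 in hypoxia from 1 UMI. Leaving out the 1 cell with the most UMIs of a factor from either group, also chosen after seeing the data, changed 29 calls of 210 ratios and turned Gata2 in all other kept cells from 2.60 to 0.854. At resolution 1 no cluster was arterial EC-like, so that no value was had. Members with a higher share of cells in hypoxia came to 2 at 500 UMIs and 1 without thinning. Depth limits Erg, Gata6 and Tal1 most, and the arterial, venous and lymphatic EC-like groups hold 14, 20 and 9 hypoxia cells.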
